A study of Saccharomyces cerevisiae with 9 samples.

Results

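The RNAs described here carry the 5′ leaders of 7 genes of glycolysis in the budding yeast Saccharomyces cerevisiae: HXK2 (YGL253W), GLK1 (YCL040W), TDH1 (YJL052W), PGK1 (YCR012W), ENO1 (YGR254W), ENO2 (YHR174W) and CDC19 (YAL038W). They were picked by systematic gene name among the wild-type RNAs of a synthetic pool, as a set chosen with earlier results of these data known. They make up 10 of 4384 wild-type RNAs and 7 of the 2371 genes that have one. GLK1 was present with 3 leaders, HXK2 with 2 and each of the other genes with 1. The pool RNAs were transcribed with T7 RNA polymerase and probed outside cells. By the labels, 3 libraries come from RNA heated to 95 °C for 2 min and given dimethyl sulphate (DMS) without refolding, 3 from RNA heated likewise, refolded and kept with DMS at 30 °C for 2 min, and 3 from RNA refolded and kept in the same way without DMS. The 6 deposited columns of values name a replicate number that 3 libraries share and name no condition. They were not used, the groups were not compared, and the report holds no reactivity, depth or error between replicates. The values below describe the sequences of the RNAs and structures predicted from them at 30 °C, and each leader is a single sequence without replicates.

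Glycolysis turns glucose into pyruvate, and its enzymes are among the most abundant proteins of a growing yeast cell. In translation initiation, a small ribosomal subunit carrying initiation factors, eIF3 among them, binds near the 5′ end of an mRNA and moves along the leader to the start codon. Stable structure in a leader is known to slow this movement in yeast, and a purine, mostly A, 3 nt upstream favours recognition of the start codon. HXK2 encodes hexokinase 2 and GLK1 glucokinase, which phosphorylate glucose at the entry to the pathway. TDH1 encodes an isozyme of glyceraldehyde-3-phosphate dehydrogenase and PGK1 the phosphoglycerate kinase. ENO1 and ENO2 encode the enolases, and CDC19 encodes the main pyruvate kinase, which makes pyruvate in the last step.

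The sequences around the start codon show how few G these leaders hold next to it. The lines give the last 18 nt of the leader, the start codon in capitals and the 9 nt after it, in the DNA letters of the deposited table. The leaders of GLK1, and those of HXK2, were the same in this stretch.
HXK2: gtacgctaattaaataaaATGgttcattta
GLK1: aactctatcatacacaagATGtcattcgac
TDH1: atttacacacaaaacaaaATGatcagaatt
PGK1: tacaacaaatataaaacaATGtctttatct
ENO1: cacaaacactaaatcaaaATGgctgtctct
ENO2: ctataacatacaataataATGgctgtctct
CDC19: aaataaaacatcatcacaATGtctagatta
No G stood in the last 18 nt of the leader in 5 of the 7 genes, where 5.99% of 2155 genes with a leader of that length had none. GLK1 had 1 G there, directly before the start codon, and HXK2 had 2. The base 3 nt before the start codon was A in 7 of 7 genes, against 61.6% of 2273 genes with a complete leader of at least 10 nt. The base directly before the start codon was A in 6 of 7 genes, against 43.1% of all, and G in GLK1. The pool writes an upstream AUG as AGU, and such a codon lay in the longest leader of 0 of 7 genes, against 15.6% of all.

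The glycolytic leaders were rich in A and poor in G, while their C content ran from low to very high. CDC19, with a 26-nt leader of 16 A, 6 C and 4 U, held no G at all, as did 0.66% of 2273 genes. ENO2 held 1 G in 29 nt (3.45%) and ENO1 2 in 36 nt (5.56%). GLK1 held 1, 1 and 3 G in its leaders of 28, 41 and 55 nt. TDH1 held 5 in 73 nt (6.85%), PGK1 3 in 39 nt (7.69%), and HXK2 2 and 4 in 28 and 46 nt. Every one of these leaders lay under 9% G, and the highest was the longer HXK2 leader with 8.70%. Averaged per gene, the G content had a median of 5.56% in the 7 genes and 17.1% in all 2273, and it was below the lower quartile of all genes in 7 of 7, where 25.0% of genes are by definition. The A content had a median of 50.0% against 38.8% and exceeded the upper quartile in 6 of 7 genes (25.0% of all), the exception being GLK1 with 43.1%. CDC19 was highest with 61.5%.

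The low G content went with different shares of C and U. GLK1 had 35.0% C, and only 1.94% of genes had more. ENO1 followed with 27.8%, TDH1 with 23.3% and CDC19 with 23.1%, and these 4 genes exceeded the upper quartile of C content (24.9% of all). ENO2 with 17.2% lay near the median of all genes, 17.5%, and HXK2 with 14.8% and PGK1 with 12.8% lay below it. PGK1 was the member richest in U, with 30.8%, and it carried the longest run of U, 5 nt. The GC content had a median of 23.1% against 35.0% in all genes, and it was below the lower quartile in 5 of 7 (25.0% of all). The exceptions were ENO1 with 33.3% and GLK1 with 38.9%, which is above the median of all genes. G made up the smaller part of the GC content in each of the 10 leaders.

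**Figure D1:**
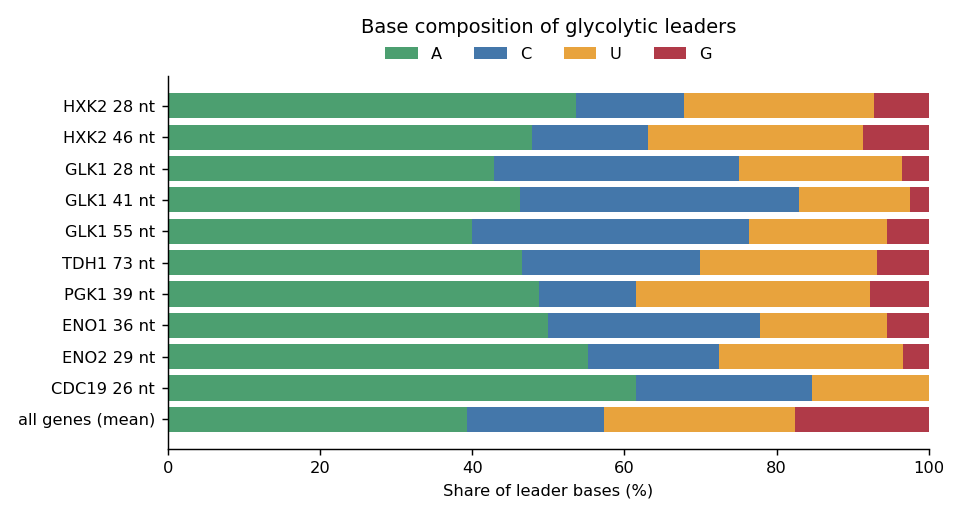
Horizontal bars give the percentage of A, C, U and G in each of the 10 glycolytic leaders and, in the last bar, the mean over 2273 genes. The G segment stays under 9% in each glycolytic leader and is absent in CDC19, whereas the C segment is widest in GLK1.

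The leaders held long stretches without G. The longest G-free stretch was 42 nt in the 55-nt leader of GLK1, 33 nt in PGK1, 29 nt in TDH1, 28 nt in ENO1 and 27 nt in ENO2, and it covered all 26 nt in CDC19. HXK2 had the shortest, 13 nt in its shorter and 24 nt in its longer leader. The gene values exceeded the upper quartile of 17 nt in 7 of 7 genes (23.1% of all genes did), with a median of 28 nt against 12 nt. Repeats of C and A recurred in them. The letters CACA were found in 5 of 7 longest leaders (24.5% of genes) and ACAA in 6 of 7 (42.3%), searched on the RNA strand only, where CACAA counts for both. PGK1 and ENO2 lacked CACA and HXK2 lacked ACAA. These motifs were chosen after the sequences had been read.

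Leader lengths ran from 26 nt in CDC19 to 73 nt in TDH1, with a median over genes of 37 nt against 42.3 nt for all. No stop codon interrupted the reading frame in any of the 10 RNAs, over 25 to 40 codons from the start codon to the last 11 nt of the insert, which differ between the RNAs of 1 gene.

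Predicted openness was high in 6 of the 7 genes. The unpaired probability of a base is the predicted share of RNA molecules in which it has no partner, and a leader's value is its mean over the leader. It was 0.758 in ENO1, 0.700 in CDC19 and 0.691 in ENO2. The 3 GLK1 leaders had 0.592, 0.694 and 0.707 in order of length. TDH1 had 0.596, and the HXK2 leaders 0.516 for 28 nt and 0.606 for 46 nt. PGK1 had 0.456, below the median of all genes, 0.481. The other 6 gene values exceeded the upper quartile of 0.554 (25.0% of all genes), with HXK2 closest to it at 0.561. The median over the 7 genes was 0.664.

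**Figure D2:**
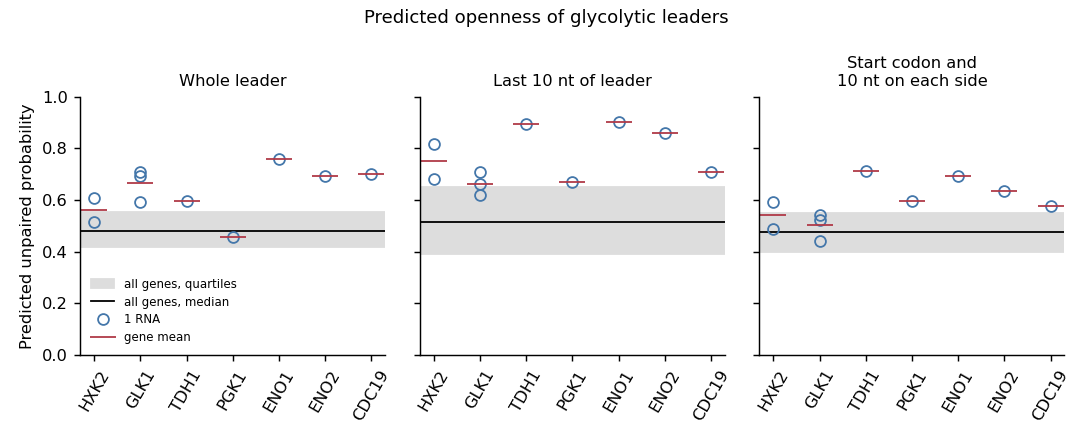
The vertical axis gives the predicted unpaired probability, from 0 to 1, of the whole leader, of its last 10 nt and of the start codon with 10 nt on each side. Circles are single RNAs, red dashes gene means, and the grey band with its line the quartiles and median of 2273 genes. In the middle panel all 7 gene means lie above the band.

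The 10 nt directly upstream of the start codon were open in all 7 genes. Their unpaired probability was 0.903 in ENO1, 0.893 in TDH1, 0.860 in ENO2, 0.750 in HXK2, 0.707 in CDC19, 0.668 in PGK1 and 0.663 in GLK1. PGK1, whose leader as a whole lay below the median of all genes, was thus open next to its start codon. All 7 genes exceeded the upper quartile of 0.648 (25.0% of all genes), and GLK1 lay just above it. From 7 to 4 nt before the start codon each base was more open in each of the 7 genes than in the median of all genes. At 3 nt before it the A was at 0.95 or more in HXK2, TDH1, ENO1 and ENO2 and at 0.58 in GLK1, where the median of all genes was 0.60. The G directly before the start codon of GLK1 had 0.12, the lowest value of the 7 genes at that position.

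Around the start codon, over 10 nt on each side, TDH1 had 0.711, ENO1 0.693, ENO2 0.635, PGK1 0.594, CDC19 0.578, HXK2 0.541 and GLK1 0.502. The median of all genes was 0.476, and 5 of the 7 exceeded the upper quartile of 0.548 (25.0% of all). HXK2 and GLK1 did not. When the insert was folded without the first GGG and the constant end of the pool RNA, 3 of 7 did so, namely TDH1, PGK1 and ENO1, and ENO2 (0.470) and CDC19 (0.474) lay below the median of all genes in that setting. The window includes the first bases of the coding part, where the members were closer to all genes. The 10 nt after the start codon had a median of 0.493 against 0.435.

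**Figure D3:**
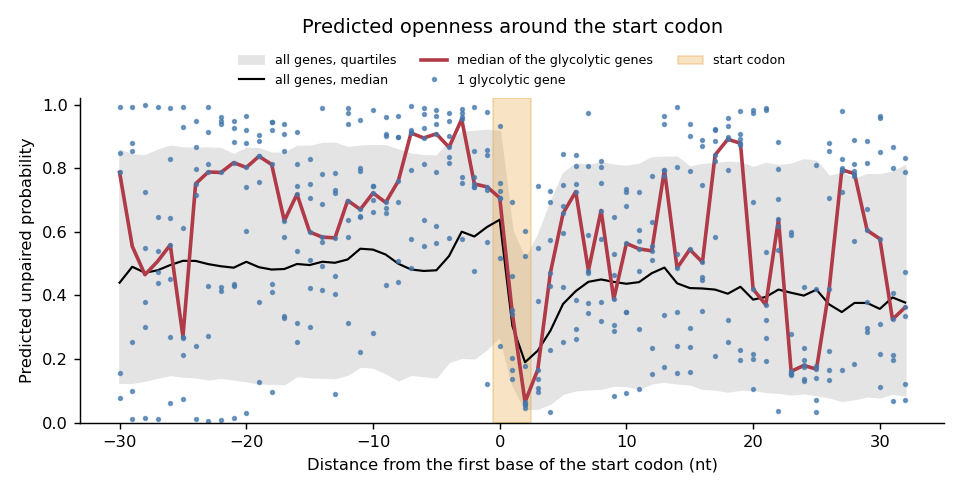
The horizontal axis gives the distance in nt from the first base of the start codon and the vertical axis the predicted unpaired probability of each base. Blue points are the 7 glycolytic genes, with fewer at the far left where leaders end, the red line their median, and the grey band and black line the quartiles and median of all genes. The red line stays above the black one over the last 24 nt before the start codon and then crosses it repeatedly in the coding part.

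The coding part was not open to the same degree. From the start codon to the last 11 nt of the insert the unpaired probability had a median of 0.438 in the 7 genes and 0.441 in all, and 0 of 7 exceeded the upper quartile of 0.482 (25.0% of all). PGK1 was lowest with 0.366 and ENO1 highest with 0.475. GLK1, ENO2 and ENO1 had early coding parts rich in G and C, with 53.8%, 49.1% and 48.6%, above the upper quartile of 44.9% (25.0% of all), while HXK2 had 37.5%. At the 5′ end, the first 10 nt of the leader had a median of 0.478 against 0.450 in all genes, with PGK1 at 0.240 and CDC19 at 0.644 as the extremes. GLK1 (0.599) and CDC19 exceeded the upper quartile of 0.553 (25.0% of all). Without the first GGG and the constant end the medians stood the other way round, 0.455 in the 7 genes against 0.576 in all.

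The few G that the leaders held were mostly paired in the prediction, while A was mostly free. Averaged per gene, G had an unpaired probability of 0.0138 in ENO2, 0.0228 in PGK1, 0.114 in TDH1, 0.135 in ENO1, 0.187 in GLK1 and 0.243 in HXK2. The first 5 of these lay below the lower quartile of 0.230, as did 25.0% of the 2258 genes with a G. In ENO1 and ENO2 a leader G lay in a helix that included bases of the GGG. Values of G without the GGG are not given here. For C the median was 0.648 against 0.389 in all genes, from 0.316 in HXK2 to 0.738 in ENO1, and 5 of 7 exceeded the upper quartile (25.0% of 2260 genes). For A it was 0.724 against 0.628, and for U 0.531 against 0.422. DMS reacts with A and C that are unpaired. Paired or not, A and C together made up from 61.5% of the leader in PGK1 to 84.6% in CDC19.

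PGK1 stood apart through a hairpin within its leader. The stretch from 38 to 19 nt before the start codon reads, with the paired bases in capitals, as follows.
PGK1 hairpin: GGAAGTAattatcTACTTTT
Its 7 base pairs had a mean probability of 0.950, and the 6 loop bases were unpaired at 0.993. Within-leader pairing took 37.4% of the bases of the PGK1 leader, the highest share of the 10 RNAs. TDH1 followed with 27.2%, which does not count pairing with the GGG. In TDH1, 4 short helices joined the 5′ part to bases 21 to 50 nt before the start codon, the outermost made partly of GGG bases. The mean probabilities of the 4 helices ran from 0.377 to 0.686. HXK2 had 17.4% and 22.1% in its shorter and longer leader. In the remaining leaders it was 8.67% in ENO1, 6.12% in ENO2, at most 6.07% in GLK1 and 0.749% in CDC19, against a median of 17.5% in all genes.

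The share of leader pairing made with the coding part varied widely. It exceeded the upper quartile in GLK1, ENO2 and CDC19, as in 25.0% of all genes, and its median was 43.3% over the 7 genes and 30.8% over all genes. With each gene's shortest leader that order turned, with 0.325 against 0.328 as fractions. Coding bases took 75.0% of the paired part of the ENO2 leader, 74.8% in CDC19, 84.0% in the 41-nt leader of GLK1 and 57.4% in its 55-nt leader. They took 43.3% in ENO1, 32.5% in the 28-nt leader of HXK2, 27.4% in PGK1, 25.5% in the 28-nt leader of GLK1, 24.8% in TDH1 and 13.0% in the 46-nt leader of HXK2. The minimum free energy structures held 26 helices of at least 3 base pairs that involved a leader. Of these, 16 joined it to coding sequence and 7 had a stretch of the leader as partner. A further 2 joined it to the constant 3′ end of the pool RNA and 1 joined it to the start codon. Among the 7, ggga in the GLK1 RNA with the 55-nt leader and ggt in TDH1 took most of their bases from the GGG. Helices shared by leaders of 1 gene count more than once among the 26, as does aag with ctt in each GLK1 RNA. The lowest mean probability was 0.096, in a helix of GLK1 with coding sequence, and 5 of the 26 exceeded 0.6. Only 3 of the 26 had a mean probability above 0.9. These were the PGK1 hairpin, a helix of 7 base pairs in ENO2 described below, and a helix in the 28-nt leader of HXK2. The last joined ggcac, of which the first 2 bases belong to the GGG, to gtgcc in the constant end with a probability of 0.997. It is made in part of bases that the yeast mRNA does not have. A helix that included bases of the GGG was predicted in 6 of the 10 RNAs. Without the GGG and the constant end the 28-nt leader of HXK2 moved from 0.516 to 0.653 and the 28-nt leader of GLK1 from 0.592 to 0.781, whereas ENO2 moved from 0.691 to 0.618.

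**Figure D4:**
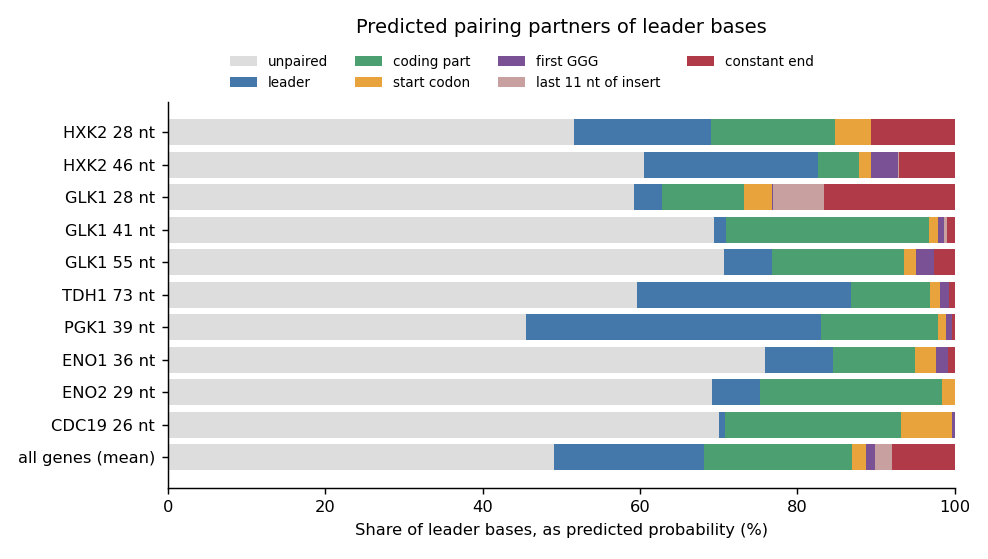
Each bar divides the bases of 1 leader, as percentages of predicted probability, into unpaired (light grey) and paired with the leader itself, the coding part, the start codon, the first GGG, the last 11 nt of the insert or the constant end. The last bar is the mean over 2273 genes. The within-leader segment is widest in PGK1 and TDH1, and the coding segment in GLK1 with 41 nt, ENO2 and CDC19.

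The alternative leaders of HXK2 and GLK1 allowed the same bases to be read in different contexts. In both genes the shorter leader was the exact 3′ end of the longer ones. The 28 nt before the start codon of HXK2 had a mean unpaired probability of 0.516 in the RNA with the 28-nt leader and 0.696 in that with the 46-nt leader, and 10 of the 28 bases differed by more than 0.3. In GLK1 the same 28 nt had 0.592, 0.686 and 0.756 with leaders of 28, 41 and 55 nt, and 6 bases differed by more than 0.3 between the shortest and each of the others. In both genes the start codon window was least open in the RNA with the shortest leader, with 0.489 against 0.593 in HXK2 and 0.443 against 0.522 and 0.541 in GLK1. These RNAs also differ at the 3′ end of the insert, because a longer leader leaves room for less coding sequence and the last 11 nt are not shared. The part of each in these differences was not tested. The order also depended on the added ends of the pool RNA. Folded without the GGG and the constant end, the whole HXK2 leader had 0.653 with 28 nt and 0.561 with 46 nt. The GLK1 leaders of 28, 41 and 55 nt then had 0.781, 0.790 and 0.731. Values of the shared bases and the start codon window of each RNA in that setting are not given here. More than 1 leader was present for 52.4% of all genes.

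ENO1 and ENO2 gave a pair with nearly the same coding part behind different leaders. Over the 112 bases from the A of the start codon that both carry before the last 11 nt of the ENO1 insert, they differed at 1 base, written C105T for ENO1 to ENO2 and counted from that A. The leaders began with the same 7 nt, agcaact, and ended with only 1 base in common before the start codon. In ENO2, ggagcaa, made of 2 bases of the GGG and the first 5 of the leader, was predicted to pair with ttgttcc at 101 to 107 nt of the coding part with a mean probability of 0.939. The differing base lies in this partner, which reads ttgtccc in ENO1. In ENO1 the GGG and the first bases of the leader instead formed a helix of 5 base pairs with coding bases 39 to 43 at 0.576. The 7 shared leader bases had a mean unpaired probability of 0.318 in ENO2 and 0.571 in ENO1. The rest of the leader had 0.810 in ENO2 (22 nt) and 0.803 in ENO1 (29 nt). With the GGG and the constant end included, the leaders thus differed more over the shared 5′ end than over the rest. Folded without them, the first 10 nt had 0.455 in ENO1 and 0.448 in ENO2. The last 10 nt of the leader then had 0.902 in ENO1 and 0.619 in ENO2. Values of the 7 shared bases in that setting are not given here. Over the 101 identical bases after the start codon the means were 0.487 and 0.467, yet 29 bases differed by more than 0.3, of which 12 were more open in ENO1.

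A least squares fit over 2273 genes gave the openness that A content, U content and leader length alone would predict. For the leader, 6 of 7 genes lay above their fitted value, as 49.3% of all genes did. ENO1 exceeded it by 0.207, GLK1 by 0.151, ENO2 by 0.115, CDC19 by 0.0858, TDH1 by 0.0620 and HXK2 by 0.00884, while PGK1 lay under it (−0.0842). The SD of these residuals over all genes was 0.0950. Adding G content to the fit reduced the median residual of the 7 genes from 0.0858 to 0.0151, with 5 of 7 above the fit (49.6% of all). For the start codon window, fitted on the composition of the window and leader length, 7 of 7 genes lay above (49.6% of all). The residuals ran from 0.0308 in HXK2 to 0.221 in ENO1, with a median of 0.105 and an SD over all genes of 0.103. With G content added, the median was 0.0724 and GLK1 lay at the fitted value (0.00095).

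**Figure D5:**
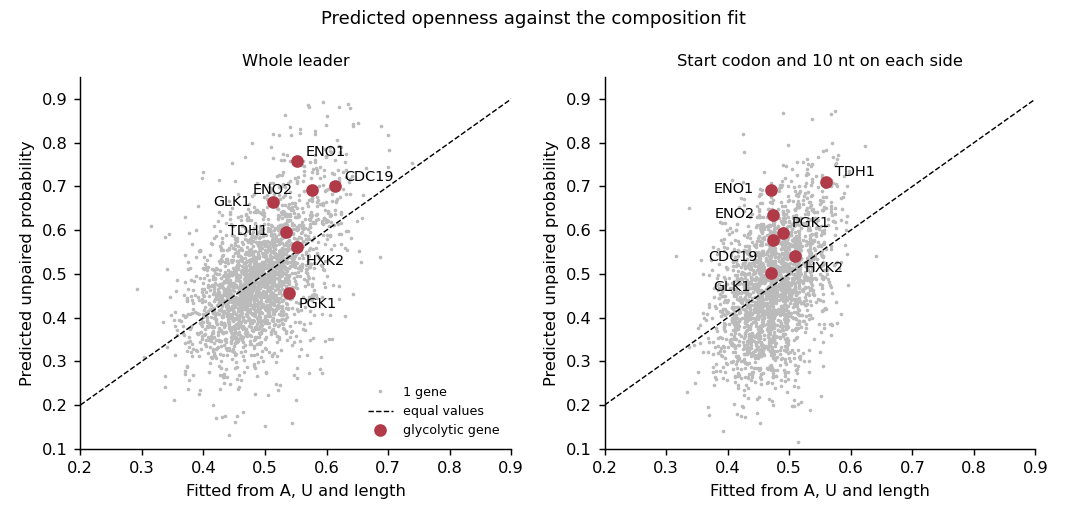
Predicted unpaired probability is plotted against the value fitted from A content, U content and leader length, for the whole leader (left) and the start codon with 10 nt on each side (right). Grey points are 2273 genes, red points the glycolytic genes, and the dashed line marks equal values. PGK1 is the only glycolytic gene below the line, in the left panel.

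Among the other genes of glycolysis, GPM2 and GPM3, homologues of the phosphoglycerate mutase gene GPM1, were the 2 of 12 listed with a leader in the comparison. Their leaders were less open, with 0.510 and 0.444, and neither exceeded the upper quartile. GPM2 was low in G (8.06%) and GPM3 was not (19.3%). Fermentation continues from pyruvate, and 5 of the 12 genes listed with it, aldehyde dehydrogenase genes included, were present. Openness was above the upper quartile in 4 of them, against 25.0% of all genes. ALD6, which encodes a cytosolic aldehyde dehydrogenase, was highest with 0.822 and 4.65% G, and ADH3, which encodes the mitochondrial alcohol dehydrogenase, lowest with 0.550 and 14.9% G. PDC5, which encodes a pyruvate decarboxylase, had 0.710 with 61.9% A. The A at 3 nt before the start codon was present in 5 of 5, against 61.6% of all genes.

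The genes most like each member were found by distance over 6 standardised features, namely length, A, U and GC content and the openness of the leader and of the start codon window. The nearest of 2272 other genes was ZPS1 for ENO1 (distance 0.357), RPL36B, a ribosomal protein gene, for CDC19 (0.450) and MIC27, a gene of the mitochondrial MICOS complex, for GLK1 (0.536). It was LSM7, a gene of the Lsm ring in mRNA decay and splicing, for TDH1 (0.538), CPP3 for HXK2 (0.605), CRP1 for ENO2 (0.655) and CRS5, a metallothionein gene, for PGK1 (0.807). No member was the nearest gene of another. The median distance to all genes ran from 2.82 for GLK1 to 4.20 for CDC19.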

How the data were processed

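RNA was transcribed with T7 RNA polymerase and reverse-transcribed with TGIRT-III, per the labels' protocols. Per the submitters' processing notes, the tools included STAR and SAMtools; no genome build is given in the sources used here. The authors deposited 1 table with the reference base of each of 1048575 positions, and only this column and the RNA names were used. The 6 columns of coverage and mutation values were not used, because their names match 3 libraries each. The last RNA, cut off after 73 nt, was left out.

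Bases were joined in file order. Each complete RNA of 182 nt held GGG, a 159-nt insert and a constant end of 20 nt. The leader runs from GGG to the single lower-case start codon. The number in a member's name was 1 above the measured length. RNAs were folded with ViennaRNA 2.7.2 at 30 °C. Leaders under 10 nt were left out, leaders of 1 gene were averaged, and 2273 genes were compared. Symbols came from the RefSeq table of assembly R64 (2214 genes matched), and none of its coordinates was used. Upper and lower quartiles over all genes served as call rules. All 7 members were named, with the highest and lowest gene of each of 8 lists and the nearest gene of each member. PDC5 was named beyond that rule after its value was seen. Members and lists were chosen with earlier results of these data known, so no p-value is given. Folding and the fit were tested on simulated data.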

Additional observations from a re-analysis of the deposited data

How the results depend on the processing

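Across 13 summary values of the 7 genes, 60 of 64 alternative settings kept the order against the median of all genes, or the sign, and moved the value by no more than 1.5 times. This criterion was chosen after the data had been seen, as no replicates give a spread to judge by. With the insert folded alone, without GGG and constant end, the first 10 nt had a median of 0.455 against 0.576 in all genes, the opposite order to 0.478 against 0.450. In that setting the count of genes above the upper quartile fell from 5 to 3 in the start codon window and from 6 to 5 for the whole leader. The median leader value with the insert alone was 0.618 against 0.526 in all genes, a smaller distance than 0.664 against 0.481. The last 10 nt then exceeded the upper quartile in 5 of 7 genes instead of 7. The shortest leader of each gene gave a median share of pairing with the coding part of 0.325 against 0.328, the opposite order to 0.433 against 0.308. Adding G content to the fit moved the median leader residual from 0.0858 to 0.0151. The causes were not tested. Folding at 37 °C gave 0.698 for the leader and 0.649 for the start codon window, against 0.502 and 0.494 in all genes. Using each gene's shortest leader gave 0.596 for the leader. The whole leader then exceeded the upper quartile in 5 of 7 genes and the last 10 nt in 6 of 7. The other settings were the longest leader, leaders of at least 20 nt, AGU codons restored to AUG, windows of 5 and 15 nt, other covariates, and Watson-strand genes alone, which all 7 members are. Leaders of at least 20 nt and Watson-strand genes alone kept every member leader, so there only the values of all genes entering the comparison or fit could change. Among the members only HXK2 and GLK1 have more than 1 leader, so the longest and shortest leader could change no other member. No member leader held an AGU codon to restore, and only HXK2 and CDC19 held such codons after the start codon. The settings for G content and for counts of genes were added after the data had been seen. No paired analysis was possible because no library values were used. Depth limits nothing here, since each value comes from a sequence, but the predictions know no salt, protein or reactivity.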

Other observations

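Listed genes of glycolysis, of pathways around it and of its regulators also had leaders low in G in part. Of 94 listed genes in 8 lists, 30 had a leader in the comparison. Of these 17 lay below the lower quartile of G content and 15 above the upper quartile of leader openness, where 25.0% of all genes do. The median G content was 11.7% and the median unpaired probability 0.559, between the medians of the member genes and of all genes. Both sugar transporter genes present, HXT2 and GAL2, had open leaders (0.644 and 0.732) with 5.41% and 5.88% G. Around the start codon they were less open than the median of all genes, with 0.417 and 0.460.

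PCK1, which encodes phosphoenolpyruvate carboxykinase of gluconeogenesis, had 0.719 and 2.63% G, and MLS1, the malate synthase gene of the glyoxylate cycle, had 0.512 and 13.2%. In the pentose phosphate list of 4 genes present, the homologues SOL4 and SOL3 were the highest and lowest, with 0.668 and 0.439 and with 4.46% and 16.7% G. Among glycerol, trehalose and glycogen genes GPP1, a glycerol-phosphatase gene, was highest with 0.741 and GSY2, a glycogen synthase gene, lowest with 0.373. In the citric acid cycle SDH3, a succinate dehydrogenase subunit gene, had 0.630 and IDH2, an isocitrate dehydrogenase subunit gene, 0.440. The glycolytic regulators GCR1 and RAP1, both transcription factors, had 0.491 and 0.480 with 20.8% and 12.7% G, and neither was below the lower quartile of G content.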
